A study of Homo sapiens with 4 samples.

Results

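The 9 genes described here are EIF2S1, which encodes the alpha subunit of the translation initiation factor eIF2, and 8 genes of the integrated stress response that act on it or downstream of it. They are the 4 eIF2 kinase genes EIF2AK1, EIF2AK2, EIF2AK3 and EIF2AK4, the transcription factor genes ATF4 and DDIT3, and the phosphatase subunit genes PPP1R15A and PPP1R15B. They were taken by gene symbol from the 19112 genes of the sgRNA count table, and 36 sgRNAs, 4 for each gene, were found. The set was chosen by pathway with the fold changes of this same screen already known, so the values below are a description and carry no test.

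The screen used A549, a cell line of human lung adenocarcinoma, transduced with the Brunello knockout library. An sgRNA that disables a gene becomes rarer or more common in the pool as its cells grow more slowly or faster than the rest. The cells were kept for 3 weeks in 4 µM HQ461, a sub-lethal dose of a cytotoxic small molecule, or in 0.1% DMSO, the vehicle. The labels name 2 libraries for each condition, but the count table holds 1 column for each, and the sources used here do not say how the libraries were combined. No difference between the columns therefore has a replicate check, no p-value is given, and spreads are over sgRNAs.

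Total counts were 16127620 with HQ461 and 14428845 with DMSO, and 1000 of the 77441 sgRNAs were non-targeting controls. The median targeting sgRNA had 110 counts with HQ461 and 152 with DMSO. Counts were scaled by the median ratio, 1 was added, and the log2 fold change of HQ461 over DMSO was taken for each sgRNA, with the median over its sgRNAs as the value of a gene. All fold changes are thus relative to the median sgRNA, and scaling by total counts would move the median by -0.68. Targeting sgRNAs had a median of -0.01 (SD 1.33 over 76171 sgRNAs), and 997 non-targeting controls had a median of -0.04 (SD 0.87) with 1st and 99th percentiles of -1.67 and 2.92.

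In the integrated stress response, different stresses are read by 4 kinases that phosphorylate the same serine of eIF2 alpha. Phosphorylated eIF2 blocks eIF2B, the factor that recharges eIF2 with GTP, so that initiation of translation slows in general while a few mRNAs, ATF4 among them, are translated more. ATF4 and its target CHOP, the product of DDIT3, then switch on genes of amino acid supply, redox balance and, under lasting stress, cell death. The PPP1R15 proteins bring protein phosphatase 1 to eIF2 alpha and end the response. eIF2 itself is needed for initiation in unstressed cells as well.

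EIF2S1 lies on the plus strand of chromosome 14 at chr14:67360328-67386516 (GRCh38, GENCODE 44). The residue on which the kinases and phosphatases of the set all act is serine 51 of the mature protein, codon 52 counted from the initiator methionine, in exon 2 of 8 of the MANE Select transcript. Its codon and the 7 codons on either side, at chr14:67364900-67364944, are shown because they are the point at which the other members meet EIF2S1, with the serine codon in capitals. Where in the gene the sgRNAs of the library cut is not known here, since the table gives them by number.
EIF2S1 coding sequence around serine 51: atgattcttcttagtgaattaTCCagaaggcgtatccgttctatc

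EIF2S1 was the member with the largest difference between the columns, and it was lower with HQ461 for all 4 sgRNAs. The 4 sgRNAs had 0, 0, 4 and 1 counts with HQ461, against 17, 10, 19 and 58 counts with DMSO, in the same order. Every HQ461 count was thus below every DMSO count. In sum there were 5 counts with HQ461 (95% exact Poisson interval 1.62 to 11.7) and 104 with DMSO (85 to 126). After scaling, the sum was 14.4-fold lower with HQ461 (95% exact Clopper-Pearson interval 5.99 to 45.4). Intervals here and below cover counting error only, since the reads are PCR products and no use of molecular identifiers is described.

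The log2 fold changes of the 4 EIF2S1 sgRNAs were -3.92, -3.22, -1.54 and -4.49, with a median of -3.57 (SD 1.28 over sgRNAs). The first pair were at 0 with HQ461, so their fitted values depend on the count added. Against a floor of 3 counts with HQ461, they were at least 3.93-fold and at least 2.31-fold lower. Counting error in the DMSO counts is not in these bounds, and the interval that includes it begins at 2.86-fold and 1.56-fold lower. The sgRNA with 4 counts was 3.3-fold lower (1.1 to 13.3), and the sgRNA with 1 count was 40.2-fold lower (6.94 to 1620). With both zeros set to the floor, the gene median was -1.63, so its size, unlike its direction, rests on how zeros are handled.

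Among 19111 genes with a value, EIF2S1 had the 7th lowest median, where the 1st percentile of genes was -1.93 and the median gene was at -0.02. This rank and percentile were taken with 1 added to each count and were not recomputed with zeros handled otherwise. Its 4 sgRNAs all lay at or under the 8.97th percentile of targeting sgRNAs. All 4 were past 2-fold, which held for 0.488% of the 18858 genes with 4 sgRNAs. Of the 4, 3 were also below the 1st percentile of the non-targeting controls, -1.67. That cut is less strict for targeting sgRNAs, of which 5.97% lay at -1.84 or less. The controls were not matched to the DMSO counts of EIF2S1.

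EIF2S1 sgRNAs were already scarce with DMSO, where the gene's median level stood at the 2.45th percentile of genes. No count of the starting library is at hand, so a low share in the library and a loss of these cells during growth in DMSO cannot be told apart. Low counts also scatter more. Among 8959 targeting sgRNAs with DMSO counts in the EIF2S1 range of 10 to 58, the median log2 fold change was -0.04 and the 1st and 5th percentiles were -4.50 and -3.31, and 28.8% were at -1 or less. In that range 320 sgRNAs (3.57%) were at 0 with HQ461 and 1257 (14%) had 4 counts or fewer. Values as low as that of each EIF2S1 sgRNA were thus also seen for others in this range. The range was not narrowed to the DMSO count of each sgRNA. Those at 0 with HQ461 had the lowest value possible at their DMSO counts. Of 115 genes with 4 sgRNAs in the range, only EIF2S1 and 1 other had a summed HQ461 count of 5 or less. The median sum of these genes was 82 and the 5th percentile 20.4, and EIF2S1 had the lowest median fold change. The range was set from EIF2S1, which was chosen with its fold change known, so its place there is a description and not a test. The part of low depth in its value was not tested. Its 60 neighbours within 5 Mb had a median of -0.07, with quartiles of -0.47 and 0.12.

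**Figure D1:**
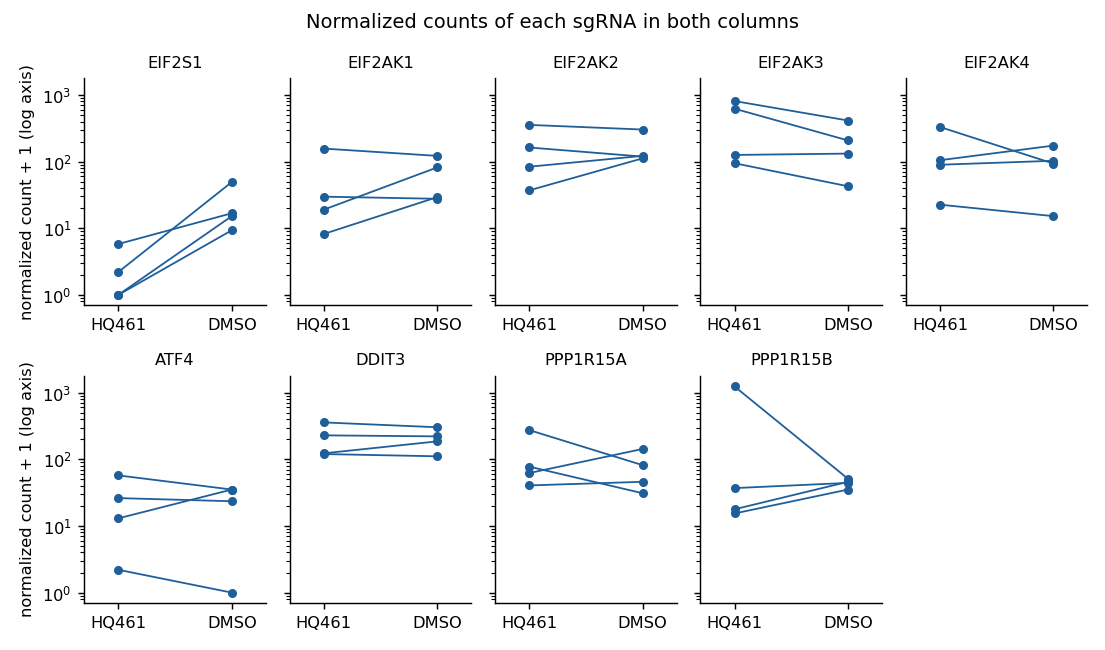
Normalized count plus 1 (log axis) of each sgRNA with HQ461 (left) and DMSO (right), 1 panel per gene and 1 line per sgRNA. All 4 EIF2S1 lines are lower at HQ461, while the lines of the other 8 genes run both ways and 1 PPP1R15B sgRNA stands at 1031 raw counts with HQ461 and 60 with DMSO.

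The other 8 genes did not follow EIF2S1. Their medians ran between -0.86 and 1.06, with a median of 0.14, and of their 32 sgRNAs 14 were below 0. Over all 9 genes the median was 0.08. There were 11 of 36 member sgRNAs at a log2 fold change of -1 or less, where 17.9% of all targeting sgRNAs and 6.82% of controls lay. At 1 or more there were 7, where 19.5% and 11.9% lay. The 7 include 1 ATF4 sgRNA, at 1.14 on 1 count with HQ461 and 0 with DMSO, which gives no fold. Without EIF2S1, 7 of 32 were at -1 or less, near the share among all targeting sgRNAs. Of the genes, 1 of 9 had a median of -1 or less (EIF2S1) and 1 of 9 a median of 1 or more (EIF2AK3), against 7.69% and 9.01% of all genes. With scaling by total counts, 3 genes were at -1 or less and 0 at 1 or more, and 14 sgRNAs were at -1 or less and 3 at 1 or more. With median-ratio scaling, the sgRNAs nearest to -1 were 1 of PPP1R15B at -1.19 on the far side and 1 of EIF2AK4 at -0.72 on the near side.

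**Figure D2:**
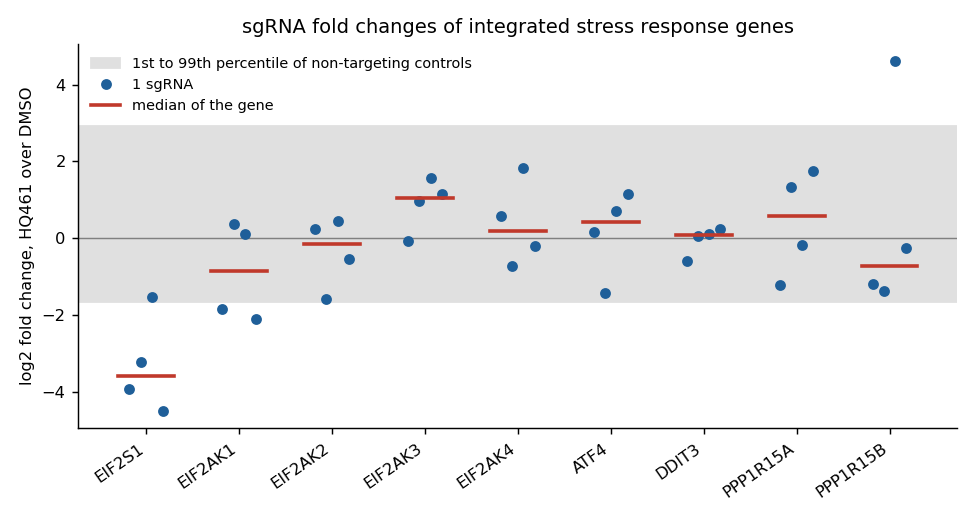
Log2 fold change of HQ461 over DMSO of each sgRNA (points) by gene, with the gene median (red line) and the 1st to 99th percentile range of the non-targeting controls (grey band, -1.67 to 2.92). The EIF2S1 median is -3.57, and 3 of its sgRNAs lie below the band, while of the other 32 sgRNAs 2 lie below it and 1 above it. Of all targeting sgRNAs, 5.97% are at -1.84 or less, which is also below the band. The highest ATF4 point, at 1.14, is from 1 count with HQ461 and 0 with DMSO and gives no fold.

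The 4 kinases differ in the stress that activates them, and their 16 sgRNAs had a median of 0.17. Of the 16, 3 were at -1 or less and 3 at 1 or more, against 17.9% and 19.5% of all targeting sgRNAs. EIF2AK3 encodes PERK, the kinase of the endoplasmic reticulum that reads unfolded protein. Its sgRNAs had 104, 675, 518 and 78 counts with HQ461, against 157, 496, 249 and 50 with DMSO. Their log2 fold changes were -0.07, 0.97, 1.58 and 1.15, so 3 were higher and 1 was nearly level. The gene median was 1.06 (SD 0.70), the 1577th highest of 19111, and the summed counts were 2.08-fold higher with HQ461 (1.91 to 2.26). All 4 sgRNAs lay inside the range of the non-targeting controls, and with scaling by total counts the median was 0.38.

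EIF2AK1 encodes HRI, first known as the heme-regulated kinase of red cell precursors and also the kinase that reads mitochondrial stress. It had 6, 130, 24 and 15 counts with HQ461, against 34, 145, 32 and 97 with DMSO. The log2 fold changes fell into pairs, at -1.84 and -2.11 for 2 sgRNAs and at 0.37 and 0.11 for the others. The median of -0.86 (SD 1.28) lay between the pairs, and it was -1.84 without the highest and 0.11 without the lowest sgRNA. In sum the counts were 1.22-fold lower with HQ461 (1.01 to 1.48).

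EIF2AK2 encodes PKR, the kinase activated by double-stranded RNA. It had 296, 30, 135 and 69 counts with HQ461 and 363, 133, 142 and 145 with DMSO. Here 1 sgRNA was at -1.59 and the others were at 0.23, 0.45 and -0.54. The median was -0.15 (SD 0.92), and the fold of the sums was 0.975 (0.872 to 1.09), an interval that holds 1.

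EIF2AK4 encodes GCN2, which reads uncharged tRNA and stalled ribosomes. It had 18, 87, 275 and 74 counts with HQ461 and 17, 208, 111 and 122 with DMSO. The sgRNA with 275 counts was at 1.82 and the rest were at 0.58, -0.72 and -0.19, so the sgRNAs of this kinase were on both sides of 0. The median was 0.19 (SD 1.11) and turned to -0.19 without the highest sgRNA. The fold of the sums, 1.43 (1.25 to 1.63), was carried by that same sgRNA.

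Downstream of the kinases, DDIT3 gave the closest agreement among sgRNAs. It encodes CHOP, a transcription factor tied to cell death under lasting stress. Counts were 102, 190, 99 and 297 with HQ461 and 222, 264, 132 and 363 with DMSO. Log2 fold changes were -0.59, 0.05, 0.11 and 0.24, with a median of 0.08 (SD 0.37), and none was past 2-fold. The fold of the sums was 1.01, and its counting interval, 0.915 to 1.12, lay within 2-fold on both sides as far as counting error goes.

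ATF4 encodes the main transcription factor of the response, and its sgRNAs were scarce with DMSO, at the 4.91st percentile of genes. They had 21, 10, 47 and 1 counts with HQ461 and 27, 41, 41 and 0 with DMSO. The last of these was at or under the floor of 3 counts in both columns and gives no fold. The other ATF4 sgRNAs were at 0.16, -1.43 and 0.71. The gene median over all 4 was 0.43 (SD 1.13), but it was 0.16 without the sgRNA that gives no fold and -0.36 with a minimum of 30 normalized counts with DMSO, which left 2 sgRNAs. The fold of the sums was 1.04 (0.772 to 1.41). The 156 neighbours of ATF4 within 5 Mb had a median of 0.43, and their part in its value was not tested. Like EIF2S1, ATF4 was read at low depth, but its 4 sgRNAs ran both ways where those of EIF2S1 ran one way.

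PPP1R15A encodes GADD34, the stress-induced subunit that targets protein phosphatase 1 to eIF2 alpha. It had 51, 64, 33 and 228 counts with HQ461 and 171, 36, 54 and 97 with DMSO. Its sgRNAs were at -1.21, 1.33, -0.18 and 1.75, a spread past 2-fold in both directions. The median was 0.57 (SD 1.36), and it was -0.18 without the highest and 1.33 without the lowest sgRNA. The fold of the sums was 1.51 (1.31 to 1.75).

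PPP1R15B encodes CReP, the subunit that does the same in unstressed cells. It had 12, 14, 1031 and 30 counts with HQ461 and 41, 54, 60 and 52 with DMSO. With DMSO its 4 sgRNAs were close to each other, and with HQ461 they were not. The sgRNA with 1031 counts was 24.8-fold higher with HQ461 (19.1 to 32.7), at a log2 fold change of 4.60 and the 99.6th percentile of targeting sgRNAs. The others were at -1.19, -1.37 and -0.26. The median was -0.73 (SD 2.81), while the summed counts were 7.57-fold higher with HQ461 (6.52 to 8.82), so the direction for this gene turned with how its sgRNAs were combined. Without that sgRNA the median was -1.19.

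In order of their medians the genes were EIF2S1, EIF2AK1, PPP1R15B, EIF2AK2, DDIT3, EIF2AK4, ATF4, PPP1R15A and EIF2AK3. Each gene overlapped the next in the range of its sgRNAs, so no pair of neighbours in this order was separated. The highest EIF2S1 sgRNA, at -1.54, was above 2 sgRNAs of EIF2AK1 and 1 of EIF2AK2 and below every sgRNA of the other 6 genes.

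**Figure D3:**
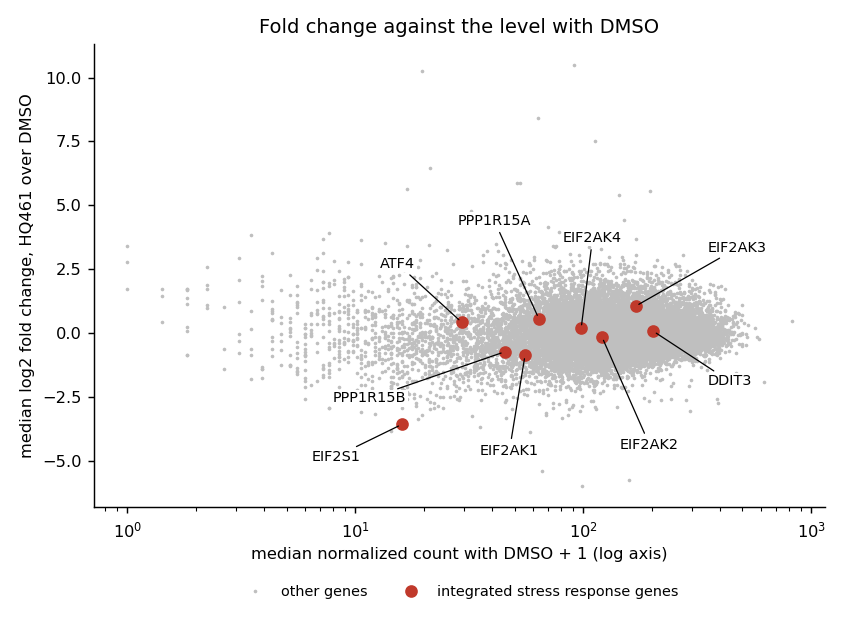
Median log2 fold change of HQ461 over DMSO of each of 19111 genes against its median normalized count with DMSO plus 1 (log axis), with the 9 genes in red. EIF2S1 sits at a low DMSO level and at -3.57, and the other 8 lie within the main cloud between -0.86 and 1.06.

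The genes with the pattern most like that of EIF2S1 were sought by the distance between 2 values, the median log2 normalized count (plus 1) with HQ461 and with DMSO, which were 0.57 and 4.00 for EIF2S1. The nearest were TRIAP1 (distance 0.02), CENPL (0.07), RPAP2 (0.16), QARS (0.17) and EIF3I (0.18). TRIAP1, which encodes a subunit of a mitochondrial lipid transfer complex, had 16 counts in sum with HQ461 and 114 with DMSO. CENPL, which encodes a kinetochore protein, had 11 and 72. RPAP2, which encodes a phosphatase of the RNA polymerase II tail, had 14 and 75. Of its 14 counts, 13 were from 1 sgRNA that was higher with HQ461, at 2.25, on 3 counts with DMSO. TRIAP1 had 15 of 16 from 1 sgRNA, CENPL 10 of 11 and EIF2S1 4 of 5, and each of these sgRNAs was lower with HQ461. QARS, which encodes glutaminyl-tRNA synthetase, had 136 of its 137 counts with HQ461 from 1 sgRNA, and EIF3I had 255 of 256 from 1 sgRNA, while 183 and 376 counts in sum stood against them with DMSO. The QARS median of -1.87 turned to 0.11 with summed counts. EIF2S1 had fewer counts with HQ461 than any of these.

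The partners of eIF2 alpha were mixed. EIF2S3, the gamma subunit that holds GTP and the initiator tRNA, had 17, 0, 0 and 0 counts with HQ461 and 36, 6, 17 and 1 with DMSO, at a fitted median of -1.73. The sgRNA with 0 and 1 counts gives no fold, and with the zeros set to 3 counts the median was -0.46. EIF2S2, the beta subunit, was at 0.31, with 2, 3, 227 and 83 counts with HQ461 and 1, 10, 129 and 144 with DMSO. Its sgRNA with 2 and 1 counts gives no fold either, and the others were at -1.02, 1.33 and -0.27. The middle of these others is -0.27, so the sign of the EIF2S2 median rests on the sgRNA that gives no fold. CDC123, a chaperone that assembles eIF2, was at 0.24. Of the 5 subunit genes of eIF2B, the exchange factor that phosphorylated eIF2 blocks, 3 had a median of -1 or less and 4 were below 0, where 7.69% and 51.3% of all genes lay. They were EIF2B1 at -1.39, EIF2B2 at 0.60, EIF2B3 at -0.50, EIF2B4 at -1.33 and EIF2B5 at -1.18. For EIF2B4, 97, 152, 4 and 2 counts with HQ461 stood against 359, 207, 16 and 19 with DMSO, so 3 of its 4 sgRNAs were lower past 2-fold. EIF2B1 and EIF2B5 each had only 2 of 4 sgRNAs lower past 2-fold. Those of EIF2B1 ran from -5.72 to 0.50, and 1 of EIF2B5, with 0 and 1 counts, gives no fold. The list median of eIF2B was -1.18, where all genes had -0.02, and 4 of its 5 genes were in the lowest 10% by DMSO level. The list median came to -0.64 with a minimum of 30 normalized counts with DMSO, -0.71 with summed counts and -0.51 without the lowest sgRNA of each gene, so it stayed below 0 but not past 2-fold. The part of low depth in it was not tested otherwise.

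Of 21 other factors that find the start codon, 5 were at -1 or less and 3 at 1 or more, against 7.69% and 9.01% of all genes, with a list median of -0.16. In the lowest 10% by DMSO level were 11 of the 21. Among subunits of eIF3, the complex that brings mRNA to the small ribosomal subunit, EIF3A was at -2.23 with 4 counts in sum with HQ461 and 39 with DMSO, and EIF3I was at -2.29 and EIF3J at -1.32. The EIF3I value turned to 0.15 with a minimum of 30 normalized counts with DMSO. Also below 0 were EIF3C at -1.62, EIF3F at -1.09, EIF3E at -0.99, EIF3G at -0.50 and EIF3H at -0.14. Other subunits were on the far side of 0, with EIF3B at 0.16, EIF3M at 0.40, EIF3D at 0.81, EIF3K at 1.20 and EIF3L at 2.39. EIF3D had 3 sgRNAs, which ran from -1.81 to 0.81. EIF3K and EIF3L form a pair at the edge of the complex. The EIF3L sgRNAs had 518, 331, 318 and 220 counts with HQ461 and 218, 58, 41 and 109 with DMSO. All 4 of its sgRNAs were higher past 2-fold. Its 140 neighbours within 5 Mb had a median of 0.45, and their part was not tested. EIF1AX, a factor of start codon scanning, was at 1.48 (SD 2.84) on 59, 5, 43 and 0 counts with HQ461 and 21, 3, 9 and 14 with DMSO, so its last sgRNA ran against the others. In the cap-binding eIF4F group of 11 genes, 1 was at -1 or less and 1 at 1 or more, against the same 7.69% and 9.01%. The scaffold EIF4G1 was at -1.71, with 1, 82, 8 and 0 counts with HQ461 and 6, 26, 49 and 7 with DMSO. The sgRNA with 82 counts was higher with HQ461, and the summed counts gave a log2 fold change of 0.57.

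Upstream of the kinases, PRKRIP1 stood out in the other direction. It encodes a nuclear protein named for its binding to PKR, which it can inhibit, and is also a component of the spliceosome. It had 2205, 1202, 779 and 934 counts with HQ461 and 42, 292, 124 and 36 with DMSO. All 4 sgRNAs were higher, at 6.20, 2.56, 3.17 and 5.18, while PKR's own gene, EIF2AK2, was at -0.15. Of the 8 inhibitors of the kinases, PRKRIP1 and HSPA8, a cytosolic chaperone at 1.21, were at 1 or more and 0 were at -1 or less, against 9.01% and 7.69% of all genes, with a list median of -0.05. DNAJC3, which restrains PKR and PERK, was at 0.18 and IMPACT, which restrains GCN2, at -0.11.

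On the list of activators, 1 of 6 genes was at -1 or less and 0 at 1 or more, against 7.69% and 9.01% of all genes. That gene was HSPA5, which encodes the endoplasmic reticulum chaperone BiP and was placed there as the sensor partner of PERK, although BiP keeps PERK inactive while bound. It had 4, 4, 0 and 0 counts with HQ461 and 26, 34, 10 and 1 with DMSO, at a fitted median of -2.15, or -1.49 with the zeros set to 3 counts. The GCN2 partner GCN1 was at 0.39. OMA1 and DELE1, which carry mitochondrial stress to HRI, were at -0.53 and -0.45. Of the 3 catalytic subunits of protein phosphatase 1, 1 was at 1 or more and 0 at -1 or less, against 9.01% and 7.69% of all genes. PPP1CA was at 1.32, PPP1CC at 0.78 and PPP1CB at 0.58, though the PPP1CB sgRNAs ran from -2.09 to 3.23. The 239 neighbours of PPP1CA within 5 Mb had a median of 0.53, and their part in its value was not tested.

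The list of targets of ATF4 and CHOP holds the members DDIT3 and PPP1R15A, and it shares ATF3, CEBPB and DDIT3 with the list of partners below. Of 31 found, 2 were at -1 or less and 1 at 1 or more, against 7.69% and 9.01% of all genes, and 22 were below 0, against 51.3%. The list median of -0.27 was -0.04 with summed counts and -0.10 without the lowest sgRNA of each gene. The lowest was XPOT, the tRNA exporter, at -1.83, with 273, 84, 17 and 44 counts with HQ461 and 163, 281, 166 and 354 with DMSO. The highest was SLC3A2, the heavy chain of amino acid exchangers, at 1.05. ASNS, asparagine synthetase, was at -0.38, CHAC1, which breaks down glutathione, at 0.32, and TRIB3, a pseudokinase that binds ATF4, at 0.97. Of 7 partners and related factors of ATF4 and CHOP, only ATF3, at -1.16, was at -1 or less and 0 were at 1 or more, against 7.69% and 9.01% of all genes.

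The 9 genes of the other branches of the unfolded protein response spread both ways, between -0.72 for DNAJB9 and 1.61 for ERN1, with a list median of 0.08. Of these 1 was at 1 or more and 0 at -1 or less, against 9.01% and 7.69% of all genes. ERN1 encodes the sensor IRE1 alpha, and its 3 sgRNAs had 987, 330 and 95 counts with HQ461 and 472, 135 and 44 with DMSO. The sgRNAs were within 1.59 and 1.81 of log2 fold change. Its 84 neighbours within 5 Mb were also raised, with a median of 0.98 and quartiles of 0.52 and 1.42, and the median of chromosome 17 was 0.97, and their part in the value of ERN1 was not tested. XBP1, the transcription factor that IRE1 alpha switches on, was at 0.70 and ATF6 at -0.02.

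**Figure D4:**
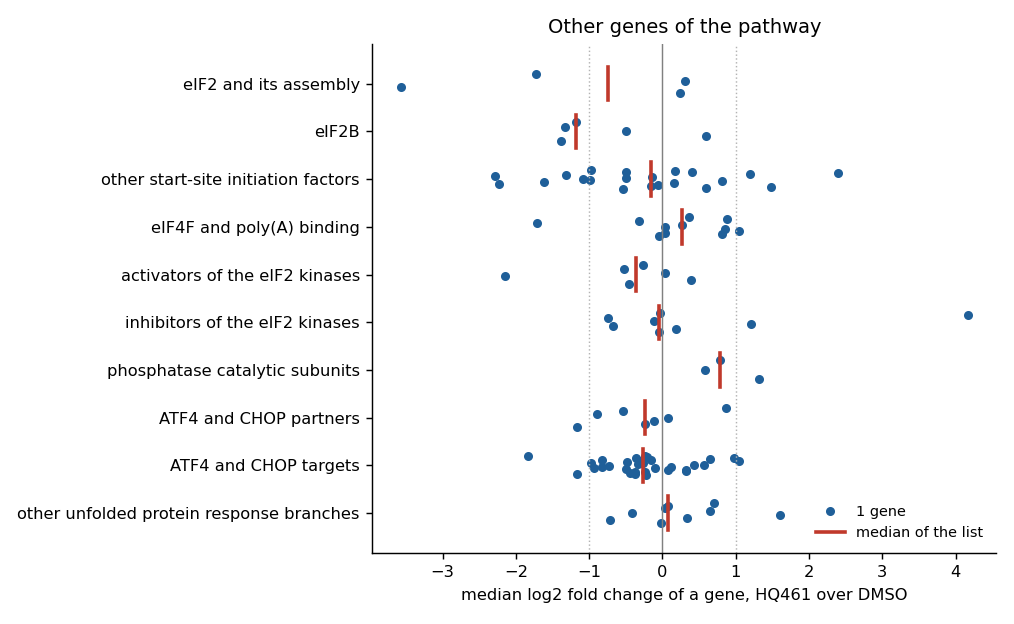
Median log2 fold change of HQ461 over DMSO of each gene (points) in 10 lists of the pathway, with the list median (red line) and dotted lines at -1 and 1. EIF2S1 at -3.57 is the lowest gene drawn and PRKRIP1 at 4.17 the highest, and the list medians run from -1.18 for eIF2B to 0.78 for the phosphatase catalytic subunits.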

How the data were processed

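Counts of reads per sgRNA were deposited by the authors, who made them with MAGeCK 0.5.9.2 without normalization, in 1 column per condition. The 9 genes and the 10 pathway lists were chosen with earlier results of these data known. All 9 genes are given with every sgRNA. List genes are named where the median was past 2-fold with at least 3 sgRNAs past 2-fold the same way, together with the 5 genes nearest to EIF2S1. EIF2S2, EIF2S3, CDC123, the other eIF2B genes and the other list genes given were chosen after their values were seen.

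Leaving out 273 sgRNAs with no count in either column, values were divided by median-ratio size factors (0.833 for HQ461, 1.2 for DMSO), and 1 was added before log2. The computation of the medians was run on simulated counts with counting error only. Changed genes were checked there only at higher DMSO counts than those of EIF2S1 and ATF4, so medians at low depth were not checked. Differential tests across replicates, and tests of gene sets, were not run. Older symbols were matched for list genes, and GARS1 was not matched. Neighbours were genes within 5 Mb (18713 of 19111 genes placed on GRCh38 by GENCODE 44). Python 3.11.15, numpy 2.4.6, scipy 1.17.1 and pandas 2.3.3 were used, with edgeR 4.0.16 for TMM factors. Alternatives were other scalings, pseudocounts, a minimum count, other ways to combine sgRNAs and sgRNAs left out. Sequences of the sgRNAs were not analysed here.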

Additional observations from a re-analysis of the deposited data

How the results depend on the processing

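No paired analysis was possible because each condition has 1 column, and leaving out each replicate was not run for the same reason. No median past 2-fold of the 9 genes or of the 10 lists changed sign under the alternatives run for it. The same alternatives were run on the 26 other list genes and nearest genes with a median past 2-fold, a choice made after the data were seen, and 21 of them kept their sign under every one that gave a value. The exceptions were EIF3C, at 0.01 with zeros set to 3 counts, EIF3I, at 0.15 with a minimum of 30 normalized counts with DMSO, EIF4E, at -0.90 with that minimum and -0.17 with summed counts, EIF4G1, at 0.57 with summed counts, and QARS, at 0.50 with that minimum and 0.11 with summed counts. The median of EIF2S1 (-3.57) was -1.68 with a pseudocount of 5 and -1.63 with zeros set to 3 counts, a setting chosen after the data were seen, and lay between -4.49 and -3.22 under the others, where a minimum of 30 normalized counts with DMSO left 1 sgRNA. The median over the 9 genes (0.08) was -0.60 with scaling by total counts, -0.19 with that minimum, 0.14 with means over sgRNAs, -0.19 without the highest and 0.23 without the lowest sgRNA of each gene, and -0.15 with zeros set to 3. The 1 gene at 1 or more became 0 with total counts, with means and without the highest sgRNA, and 2 with summed counts and without the lowest. The 1 gene at -1 or less became 3 with total counts and without the highest sgRNA. The 7 sgRNAs at 1 or more became 3 with total counts, and the 11 at -1 or less became 7 with the minimum count. PPP1R15B (-0.73) turned to 0.45 with means and 2.91 with summed counts. The causes were not tested. Depth limits EIF2S1 and ATF4 most, with 104 and 109 counts in sum with DMSO.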
